A study of Mus musculus with 3 samples.

Results

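The genes described here are 61 rows of a table of 14811 genes measured in macrophages of the mouse kidney. They were chosen by symbol alone and belong to families known for members induced by interferon, a cytokine of antiviral defence. The families are the Ifit, Ifitm, Oas, Mx, Gbp, immunity-related GTPase (IRG), Schlafen, p200, ISG12, ISG15 and ISG20 genes, the pair Parp9 and Parp14, and 7 genes taken singly. The study held a single group of 3 libraries, each of sorted macrophages from the digested kidneys of a different C57BL6/J mouse. Every mouse had received PBS, a salt buffer, by intravenous injection 1 h before its kidneys were removed. The labels give neither the age and sex of the mice nor the gate of the sort. With no second condition, the values are levels, differences between genes within a library, and differences between mice.

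Type I interferons bind a receptor made of Ifnar1 and Ifnar2, and the kinases Jak1 and Tyk2 then start a signal to the nucleus. A complex that includes Stat2 and Irf9 binds the interferon-stimulated response element (ISRE) in the promoters of target genes, while interferon gamma acts at another element, GAS. The products block viruses at entry, translation, replication and release, and the GTPase families attack vacuoles that hold bacteria or parasites. Tissue macrophages are known to keep part of this programme active without infection.

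All levels below are normalised read counts, meaning reads per gene divided by a size factor of the library. Levels of different genes are compared only after division by exon length, as normalised read counts per kb. The libraries held between 50646558 and 56718534 reads over the listed genes, and where a gene had 0 reads the limit (3 reads, for counting error alone) was 2.42 in mouse 1, 1.66 in mouse 2 and 2.11 in mouse 3. The macrophage label fitted the markers: each of the 11 macrophage markers in the table exceeded 1000 in the 3 mice, while Cd3e of T cells and S100a9 of neutrophils were at 0 throughout. Some markers of other cell types had reads. The monocyte marker Ccr2 (29145, 8939 and 12215) and the dendritic cell marker Clec9a (3421, 1330.3 and 1462) also exceeded 1000 in each mouse. Both were higher than the median gene. Each was the only marker of its list at 10 or more in every mouse, among 4 monocyte and 6 dendritic cell markers in the table. The tubule marker Kap was also above 1000 in each mouse, at 35490.3 in mouse 1, 172061 in mouse 2 and 13511 in mouse 3. It too was higher than the median gene. The other tubule markers summed to 4315, 19446 and 2045. Of the 8 tubule markers 7 were highest in mouse 2, and Umod (40.3, 598 and 998) was highest in mouse 3. The B cell gene Cd79b was at 227, 3940 and 6359, and the other B cell marker in the table, Ebf1, was at 4.03, 337 and 0.705. Cd79b and the tubule marker Slc34a1 (2399, 8606 and 915) were also higher than the median gene, without exceeding 1000 in each mouse. Mouse 2 also stood apart in its low end, with a median of 165 over all genes against 45.2 and 50.7 in mice 1 and 3. The leading counts are therefore given without mouse 2 as well. In bulk samples a smaller number of expressing cells and less RNA per cell cannot be told apart.

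Most promoters that could be matched held the core of the ISRE sequence. RefSeq promoters (build GRCm38.p6, 250 bases before to 50 after the gene start) were found for 43 of the 60 symbols. The core, GAAA and GAAA with any 2 bases (NN) between them, searched on both strands, was present in 28 of these 43 (65.1%), against 4.18% of the 9652 listed genes with a promoter. The longer form, AGTTTC and TTTCNC with NN between them, also searched on both strands and containing the core, was in 9 of 43 (20.9%) against 0.218%. The GAS sequence, TTC and GAA with NNN between them, which reads alike on both strands and can overlap the core, was in 13 of 43 (30.2%) against 8.31%. No test was made of these shares, and a match is a run of letters and not a measured binding site. The 11 stretches below, 70 bases each and all before the gene start, are shown because they come from genes whose levels run from near 0 to among the highest in these cells. Capitals mark 1 match to the core, written as it reads on the gene's own strand.
Ifit1, chr19:34640774-34640843, plus strand: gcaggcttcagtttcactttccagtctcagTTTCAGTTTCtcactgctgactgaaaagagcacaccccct
Ifit3, chr19:34583343-34583412, plus strand: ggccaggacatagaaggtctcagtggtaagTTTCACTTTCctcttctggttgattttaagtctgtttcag
Ifit3b, chr19:34607739-34607808, plus strand: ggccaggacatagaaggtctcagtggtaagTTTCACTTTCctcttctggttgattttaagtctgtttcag
Isg15, chr4:156200851-156200920, minus strand: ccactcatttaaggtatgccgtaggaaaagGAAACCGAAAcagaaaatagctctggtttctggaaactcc
Rsad2, chr12:26456533-26456602, minus strand: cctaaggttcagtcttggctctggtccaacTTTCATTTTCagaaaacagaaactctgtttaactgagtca
Gbp2, chr3:142620574-142620643, plus strand: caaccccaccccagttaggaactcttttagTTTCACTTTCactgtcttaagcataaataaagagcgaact
Gbp2b, chr3:142594680-142594749, plus strand: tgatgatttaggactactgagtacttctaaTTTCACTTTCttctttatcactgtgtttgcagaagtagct
Gbp3, chr3:142559969-142560038, plus strand: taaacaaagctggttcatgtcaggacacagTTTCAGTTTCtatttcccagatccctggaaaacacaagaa
Ifitm2, chr7:140955968-140956037, minus strand: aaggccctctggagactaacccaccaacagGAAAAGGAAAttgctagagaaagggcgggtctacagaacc
Tgtp1, chr11:48992284-48992353, minus strand: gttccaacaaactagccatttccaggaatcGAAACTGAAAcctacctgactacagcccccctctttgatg
Tgtp2, chr11:49064243-49064312, minus strand: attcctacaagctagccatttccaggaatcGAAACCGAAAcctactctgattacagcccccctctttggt

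Compared position by position without gaps, the stretches of Ifit3 and Ifit3b differ at 0 of 70 bases, and those of Tgtp1 and Tgtp2 at 21. The Tgtp2 stretch has an extra base shortly after the core, which shifts the letters that follow, so 21 overstates the difference of that pair. Among the 43 genes with a promoter, levels with and without the core overlapped, and the difference was not tested. The abundant genes Ifi27l2a and Rtp4 had no matched promoter and are not included. The median was 546 normalised read counts per kb over the 28 genes with the core (range 0 to 49720.5) and 356 over the 15 without it (range 0 to 5827). In the test against the median gene described next, 11 of the 28 and 7 of the 15 were higher (16.3% of all genes tested were).

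**Figure D1:**
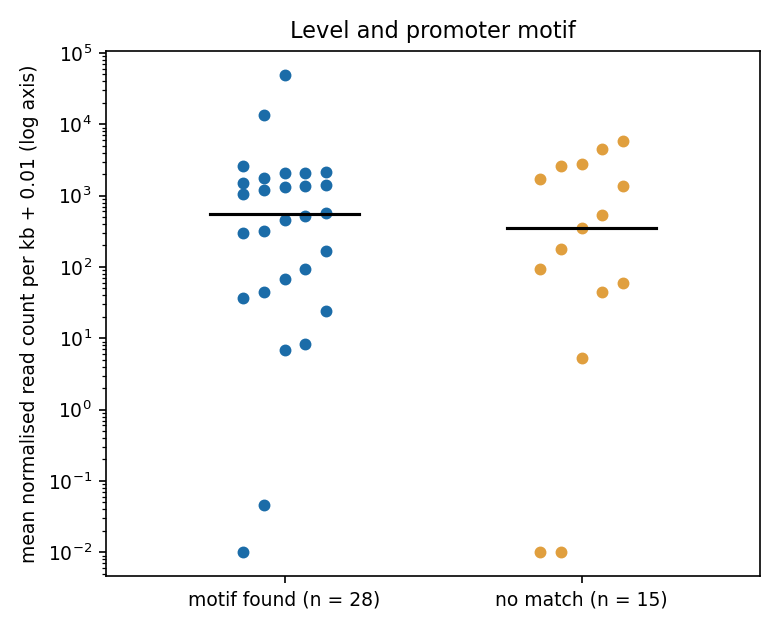
Mean level per kb (log axis, 0.01 added so that genes at 0 can be drawn) of the 28 genes whose promoter holds the ISRE core and the 15 without a match. Each point is 1 gene, the bars are medians (546 and 356), and both sets include genes at 0; the highest are at 49720.5 with and 5827 without a match.

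Many of the interferon-inducible genes were abundant in these cells. Of the 61, 55 reached 10 in at least 1 mouse (83.3% of all listed genes did), 44 reached it in each mouse (44.4% of genes) and 24 reached 1000 in each mouse (14.7%). Together they took 0.776% ± 0.129 of the reads (SD, n = 3). The median member was at 516 normalised read counts per kb, and the median of all listed genes was 69.3. Each gene was then tested against the median gene of its own library, per kb, with limma over 13792 genes. Of the 56 members with any reads, 27 were higher (16.3% of all genes tested were) and 2 were lower (15.2% of all genes were). Without mouse 2 the higher count was 18 (10.96% of all genes tested), and among only those genes at 10 or more in every mouse it was 14 of 44 (15.3% of such genes). A few genes made up most of the sum: per kb, Ifi27l2a, Ifitm3 and Rtp4 held 68.9% of the summed mean level of all 61, and the 10 highest genes held 85.2%. Before division by length these 3 genes held 37.1% of the summed normalised read count. The 5 members at 0 in every mouse were Ifitm1, Ifitm5, Ifit1bl1, Slfn10-ps and the second of the 2 rows named Gbp6 (6.59% of all genes were at 0 throughout).

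**Figure D2:**
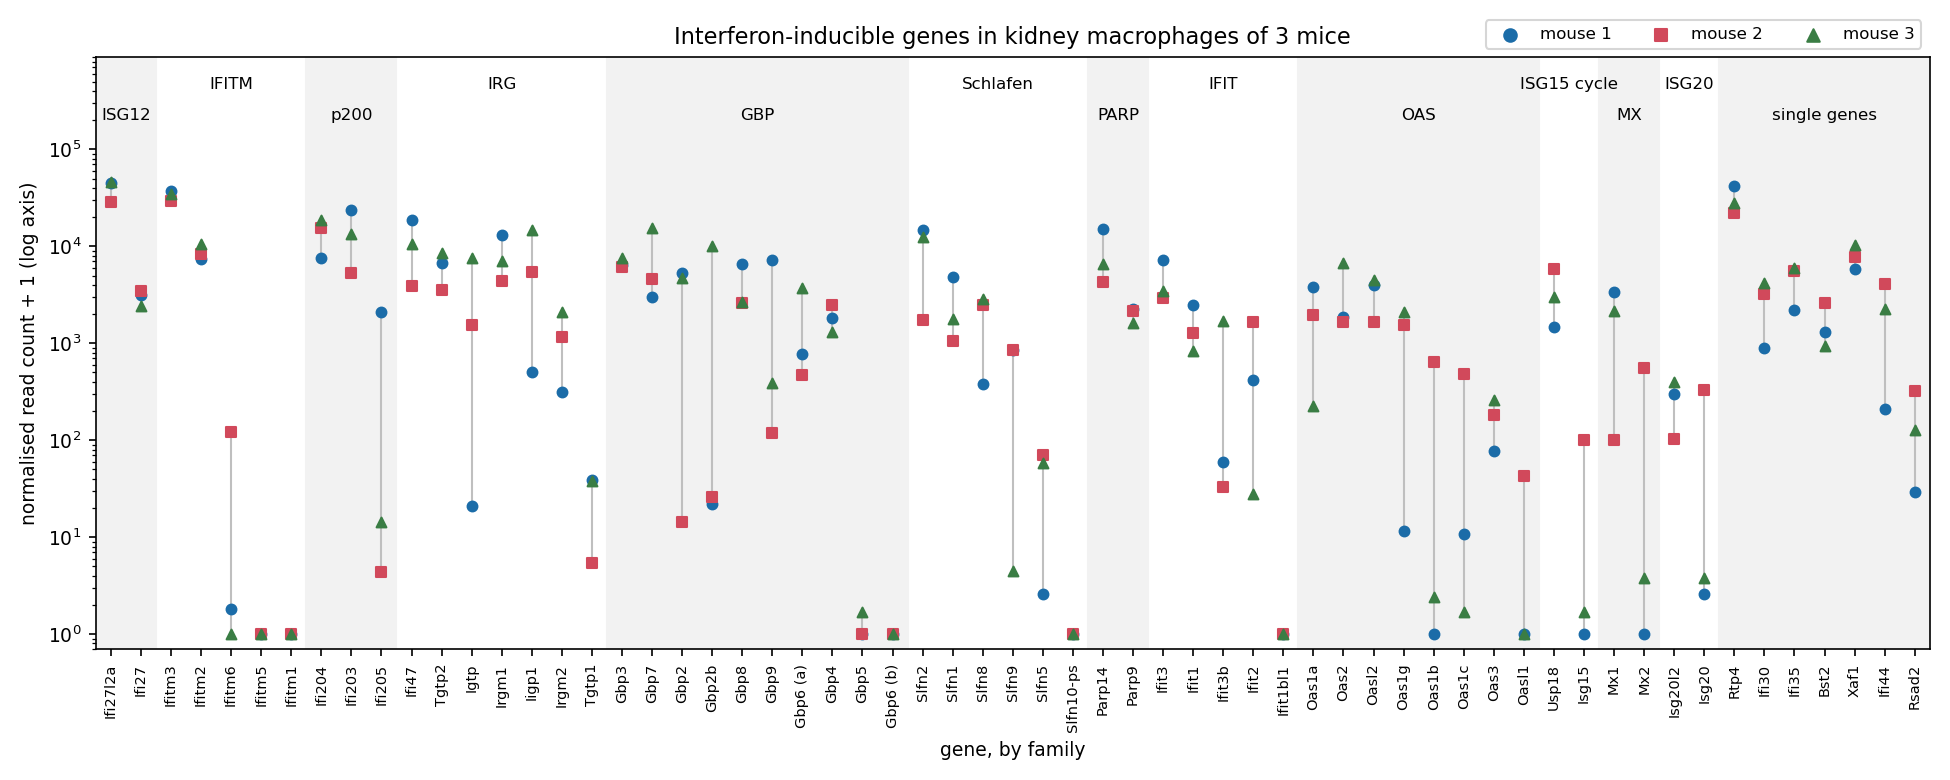
Normalised read count plus 1 (log axis) of all 61 genes, grouped by family, with a symbol for each mouse and a grey line from the lowest to the highest mouse. Ifi27l2a, Ifitm3, Ifitm2 and Rtp4 sit high with the 3 mice close together, while Oas1b, Mx2, Isg20 and Isg15 are drawn high in mouse 2 alone.

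Among genes that act at viral entry, Ifitm3, which blocks fusion of enveloped viruses in endosomes, was at 36902.5 in mouse 1, 29251.5 in mouse 2 and 34978 in mouse 3. Its neighbour and relative Ifitm2 was at 7451, 8286 and 10620.0. The highest mouse exceeded the lowest by 1.26-fold for Ifitm3 and 1.43-fold for Ifitm2, so the 3 mice nearly coincided. Per kb, Ifitm3 was at 49720.5 ± 5869.8 (SD, n = 3) and lay 10.50 ± 1.04 SE log2 units above the median gene (adjusted p = 0.0146, limma, higher in 3 of 3 mice), and Ifitm2 lay 8.60 ± 1.03 SE above it (adjusted p = 0.0146, limma, 3 of 3). Ifitm6 was at 0.806, 120 and 0. Thus 1 relative was seen almost only in mouse 2, and Ifitm1 and Ifitm5, the latter known from bone, were at 0 throughout. Of the 50-base windows of the Ifitm2 transcript, 48.5% also occur in transcripts of other genes, so its share of reads is uncertain.

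The ISG12 genes encode small hydrophobic proteins of internal membranes. Ifi27l2a was at 44714, 28982 and 46522 in mice 1, 2 and 3, and per kb it was the highest of all 61 genes (86549.9 ± 20836 SD, n = 3, above 99.8% of genes). It lay 11.27 ± 1.06 SE log2 units above the median gene (adjusted p = 0.0146, limma, 3 of 3 mice). Its neighbour Ifi27 was at 3150.1, 3432 and 2430.2, and its difference from Ifi27l2a per kb was -5.38 ± 0.71 SE log2 units (adjusted p = 0.00275, limma, lower in 3 of 3). Since 99.5% of all genes were below Ifi27l2a by the same test, that call says little about Ifi27 itself.

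Rtp4, a chaperone that brings receptors to the cell surface and is induced by interferon, was the third abundant gene at 42046, 22008 and 27938. It lay 8.66 ± 1.06 SE log2 units above the median gene (adjusted p = 0.0146, limma, 3 of 3 mice). Of the other genes taken singly, Xaf1, a promoter of cell death, was at 5777.6, 7823 and 10439.6, and Ifi35 was at 2186, 5535 and 5949. Ifi30, a thiol reductase that helps to unfold antigens in lysosomes, was at 882, 3216 and 4140.0. Bst2, also called tetherin, which holds budding virus at the cell surface, was at 1298, 2590 and 944. These 5 genes were all higher than the median gene (log2 differences from 5.57 to 8.66), Ifi30 not so without mouse 2. Ifi44 (206, 4079 and 2264) and Rsad2 (28.2, 320.2 and 127), which encodes the antiviral enzyme viperin, did not pass. Both were lowest in mouse 1 and highest in mouse 2, by 19.8-fold and 11.3-fold.

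The p200 genes encode DNA-binding proteins of the nucleus and cytosol, some of them sensors of foreign DNA. Ifi203 was at 23549, 5288 and 13405 and Ifi204 at 7654, 15613 and 18623. Both were higher than the median gene, by 5.69 ± 1.15 SE and 6.74 ± 1.03 SE log2 units (adjusted p = 0.0194 and 0.0146, limma, 3 of 3 mice each). Of these 2 neighbours, Ifi203 was highest and Ifi204 lowest in mouse 1. Ifi205, in the same cluster, was at 2092 in mouse 1, 3.33 in mouse 2 and 13.4 in mouse 3. Its 628-fold difference between mice 1 and 2 was the widest of the 61 genes with values under 3 reads set to that floor. The family has further relatives, and 30.2% of the windows of Ifi204 also occur in other genes, mostly Ifi211.

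IRG proteins are GTPases that coat the vacuoles of intracellular pathogens. In the regulatory subgroup, which sits on host membranes and keeps the others in check, Irgm1 was at 13216, 4391 and 7089.7. Irgm2 was at 315, 1162 and 2101, and Igtp, also called Irgm3, at 20.2, 1536 and 7644. Irgm1 was highest in mouse 1 and the other two were highest in mouse 3 and lowest in mouse 1. The ratio of Igtp to Irgm1 per kb was accordingly -7.76, 0.01 and 1.63 log2 units in mice 1, 2 and 3 (-2.04 ± 2.10 SE, adjusted p = 0.417, limma). Irgm2 was below Irgm1 in 3 of 3 mice without passing the test (-2.37 ± 1.181 SE, adjusted p = 0.134, limma). Igtp and Irgm2 are neighbours and share the same order of mice.

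Of the effector subgroup, Ifi47 was at 18744, 3928 and 10593 and Tgtp2 at 6744.5, 3505 and 8534.5. Iigp1, which attacks the vacuole of Toxoplasma, was at 501, 5426 and 14871, a 29.7-fold range from mouse 1 to mouse 3. Ifi47 and Tgtp2 were higher than the median gene and so was Irgm1 (3 of 7 in the family, against 16.3% of all genes tested, Irgm1 not so without mouse 1), while Iigp1 missed the threshold (adjusted p = 0.0578, limma, higher in 3 of 3 mice). Tgtp1 was at 37.9, 4.44 and 37.4, far under its twin. The 2 transcripts are nearly the same sequence, with 91.4% of the windows of Tgtp1 found elsewhere, so the split of reads between them is uncertain and depends on the authors' counting.

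Guanylate-binding proteins (Gbp) are larger GTPases that help to break such vacuoles and bacterial membranes open. Gbp3 was at 6413, 6149 and 7637, and its 1.24-fold range was the narrowest among the members at a mean of 10 or more. Its neighbours in the same cluster ranged far wider. Gbp2 was at 5294 and 4679.9 in mice 1 and 3 but at 13.3 in mouse 2. Gbp2b was at 21, 25 and 10164. Gbp7 was at 2997, 4581 and 15432.5. The 4 genes lie side by side, and the stretches printed above show the ISRE core before Gbp2, Gbp2b and Gbp3, yet Gbp2 was near the low end in mouse 2 alone and Gbp2b in mice 1 and 2. Gbp5, in the same cluster, had 1 read in all (0, 0 and 0.705) and was lower than the median gene (-7.57 ± 1.05 SE log2 units, adjusted p = 0.0146, limma, 3 of 3 mice). With so few reads that size depends on the 1 added before the log. It was -10.12 with 0.1 added instead and -4.72 with 10.

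In the second Gbp cluster Gbp8 was at 6508, 2631 and 2666, Gbp4 at 1818, 2489 and 1317, and Gbp9 at 7215.5, 117 and 385.5. The first of the 2 rows named Gbp6 was at 782, 467 and 3685. Over both clusters 3 of the 9 rows tested, Gbp3, Gbp7 and Gbp8, were higher than the median gene (16.3% of all genes tested were). The Gbp7 call was lost without mouse 2 or 3 and the Gbp8 call without mouse 1 or 2. The other Gbp6 row is named Gm43302 in the later annotation, and 100% of its windows occur in other genes, so its value of 0 is uncertain and depends on how the authors treated shared reads.

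Among Schlafen genes, which restrain growth of immune cells and the translation of viral RNA, Slfn2 was at 14770 in mouse 1, 1746.5 in mouse 2 and 12572 in mouse 3. Slfn1 was at 4782, 1045 and 1769.8. Both were higher than the median gene, by 6.91 ± 1.28 SE and 5.02 ± 1.15 SE log2 units (adjusted p = 0.0163 and 0.0259, limma, 3 of 3 mice each), and both were highest in mouse 1 and lowest in mouse 2. The Slfn1 call was lost without mouse 1 or 2. The longer members had other orders of mice. Slfn8 was at 375, 2465 and 2840.4, and Slfn9 at 848, 845 and 3.52, so that Slfn9 was near 0 in mouse 3 only. Slfn5 was at 1.61, 69.4 and 57.1. It was below Slfn2 per kb in 3 of 3 mice (-10.21 ± 1.98 SE log2 units, adjusted p = 1.02e-06, limma), as were 76.6% of all genes. The difference was -14.39, -6.56 and -9.68 log2 units in mice 1, 2 and 3. That SE comes from a variance pooled over genes and not from these 3 values.

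Parp9 and Parp14, ADP-ribosyltransferase family proteins that lie side by side, were both present in every mouse. Parp14 was at 15099, 4274 and 6608, and Parp9 at 2248, 2153 and 1635. Both were higher than the median gene (4.56 ± 1.12 SE and 3.58 ± 1.02 SE log2 units, adjusted p = 0.0307 and 0.0451, limma, 3 of 3 mice each). Parp9 had a 1.37-fold range over mice. These 2 calls were lost without any 1 of the mice (adjusted p up to 0.130 and 0.507 over 9 alternatives, limma).

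Ifit proteins bind viral RNA and block its translation. Ifit3 led the family at 7150.2, 2923 and 3451, followed by Ifit1 at 2493, 1269 and 834.5. They were 6.12 ± 1.08 SE and 3.93 ± 1.07 SE log2 units above the median gene (adjusted p = 0.0157 and 0.0396, limma, 3 of 3 mice each), and the Ifit1 call was lost without any 1 of the mice. Ifit2 was at 422, 1664 and 26.8, so the mouse with most Ifit1 was not the mouse with most Ifit2. Per kb, the difference of Ifit2 from Ifit3 was -5.25, -1.98 and -8.13 log2 units in the 3 mice (-5.12 ± 1.45 SE, adjusted p = 0.0320, limma), and 74.8% of all genes were below Ifit3 by this test. Leaving out mouse 1 or mouse 3 ended that call (adjusted p up to 0.141, limma). Ifit3b was at 58.9, 31.6 and 1698 despite the identical promoter stretch shown above, and 45% of its windows occur in other genes, mostly Ifit3.

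Oas enzymes sense double-stranded RNA and make a messenger that activates RNase L. Oas1a was at 3823.5, 1934 and 224, Oas2 at 1848, 1647 and 6768, and Oasl2 at 3997, 1673 and 4457. These 3 of the 8 genes were higher than the median gene (16.3% of all genes tested were; log2 differences from 3.83 to 4.198, adjusted p from 0.0392 to 0.0479, limma). Each of the 3 calls was lost without at least 1 mouse, Oas1a without mouse 1 or 2, Oas2 without any 1 mouse, and Oasl2 without mouse 1 or 3. Oas1g, whose transcript shares 54.7% of its windows with other genes, mostly Oas1a, was at 10.5, 1534 and 2078.5. Oas1a and Oas1g thus ran opposite ways over the mice. Oas3, the longest member, was at 75.8, 179.8 and 258, and its difference from Oas2 per kb was -4.83 ± 1.37 SE log2 units (adjusted p = 0.0169, limma, lower in 3 of 3, as were 51.8% of all genes). That call was lost without mouse 1 or mouse 3 (adjusted p up to 0.0970, limma).

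The remaining Oas genes had reads almost only in mouse 2. Oas1b was at 0, 634 and 1.41, Oas1c at 9.68, 482 and 0.705, and Oasl1, which represses translation of Irf7, at 0, 41.6 and 0. Oasl1 was lower than the median gene (-4.68 ± 1.31 SE log2 units, adjusted p = 0.0431, limma, lower in each mouse), which did not pass without mouse 1 or mouse 3. Its difference from Oasl2 per kb was -10.68, -4.01 and -10.83 log2 units in the 3 mice (-8.50 ± 1.73 SE, adjusted p = 0.0238, limma, as were 38.2% of all genes), also lost without mouse 1 or mouse 3 (adjusted p up to 0.0904, limma).

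Isg15 and the protease that removes it were at very different levels. Isg15, a ubiquitin-like protein attached to other proteins during the interferon response, was at 0, 100.5 and 0.705 in mice 1, 2 and 3. Usp18, that protease, which also damps signalling at Ifnar2, was at 1481, 5867 and 2974. Per kb, the difference of Isg15 from Usp18 was -8.65, -3.97 and -8.89 log2 units (-7.17 ± 1.61 SE, adjusted p = 2.38e-05, limma, lower in 3 of 3 mice, as were 66.6% of all genes). That SE and p-value come from a variance pooled over genes and not from the spread of these 3 values. Both genes were highest in mouse 2, and Usp18 passed the test against the median gene, though not without mouse 2. The conjugation enzymes of Isg15 were present in every mouse: Ube2l6 was at 7465.5, 1144 and 1807 and Trim25 at 5214, 2676 and 3998, and these 2 of the 5 listed were higher than the median gene (16.3% of all genes tested were). Herc6, the next per kb, was at 12490, 560 and 1374 and did not pass.

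The dynamin-like GTPases Mx1 and Mx2 were highest in different mice. Mx1, which carries an inactivating deletion in most laboratory strains, was at 3364, 100.5 and 2140.5, and Mx2 at 0, 554 and 2.82. Mx2 in mouse 2 was at least 229-fold above mouse 1 against the floor of 3 reads. The ratio of Mx1 to Mx2 per kb was 11.65, -2.52 and 9.06 log2 units (6.06 ± 2.98 SE, adjusted p = 0.178, limma). The exonuclease Isg20 showed the same side as Mx2, at 1.61, 332 and 2.82. Isg20l2, a nucleolar relative in name, was at 300.01, 101.01 and 400.3, and neither gene passed the test against the median gene.

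In all, 19 pairs within families were compared, with p-values adjusted over all genes tested against the same reference gene. Of these, 8 passed, and in each the gene of the pair chosen as reference was the higher. Besides those given above they were Ifitm2 against Ifitm3 (-1.90 ± 0.65 SE log2 units per kb, adjusted p = 0.0462, limma, lost without any 1 mouse) and Ifitm6 against Ifitm3 (-12.86 ± 1.77 SE, adjusted p = 0.00350, limma), where 99.2% of all genes were below the same reference. Since 38.2% to 99.5% of all genes were lower than those references, passing is common and marks the references as abundant. The smallest two-sided p of an exact sign-flip test over 3 libraries is 0.25. Among the 11 that did not pass, Oas1a and Oas2 differed by 0.03 ± 1.61 SE, Gbp3 and Gbp7 by 0.95 ± 1.58 SE, and Ifi204 and Ifi203 by 1.05 ± 1.24 SE log2 units per kb, and errors of this size leave differences of several-fold undetected.

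For 22 of the 55 members with a mean of at least 10 (40%), the highest mouse was 10-fold or more above the lowest, against 61.4% of the 11636 genes at that level, 100-fold or more for 10 (28.9% of all genes) and under 2-fold for 9 (11.9%). Without mouse 2 the 10-fold count was 12 of 48 (43.9% of genes), and without mouse 1 it was 13 of 54 (41.3%). Among all genes a 10-fold range was rarer at higher levels, so the counts are also given by level. What lies behind the gap to other genes was not tested. Of the 39 members at a mean of 1000 or more, 9 had a 10-fold range (33.3% of genes), 4 a 100-fold range (15.1%) and 9 a range under 2-fold (21.4%). By level, the 10-fold count was 4 of 5 for means from 10 to under 100 (83.4% of genes), 9 of 11 from 100 to under 1000 (76.4%), 9 of 33 from 1000 to under 10000 (36.7%) and 0 of 6 above that (2.07%). Set against the median range of all genes at their own level, 31 of 55 members (56.4%) ranged less. Across the 55 members, Pearson's r between libraries on the log2 scale was 0.56 for mice 1 and 2, 0.77 for mice 1 and 3, and 0.59 for mice 2 and 3, where all genes at that level gave 0.51, 0.55 and 0.49. Across the 39 members at a mean of 1000 or more it was 0.40, 0.30 and 0.44, beside 0.36, 0.18 and 0.41 for all genes at that level. Points in each such correlation share the same 2 libraries and are not independent.

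**Figure D3:**
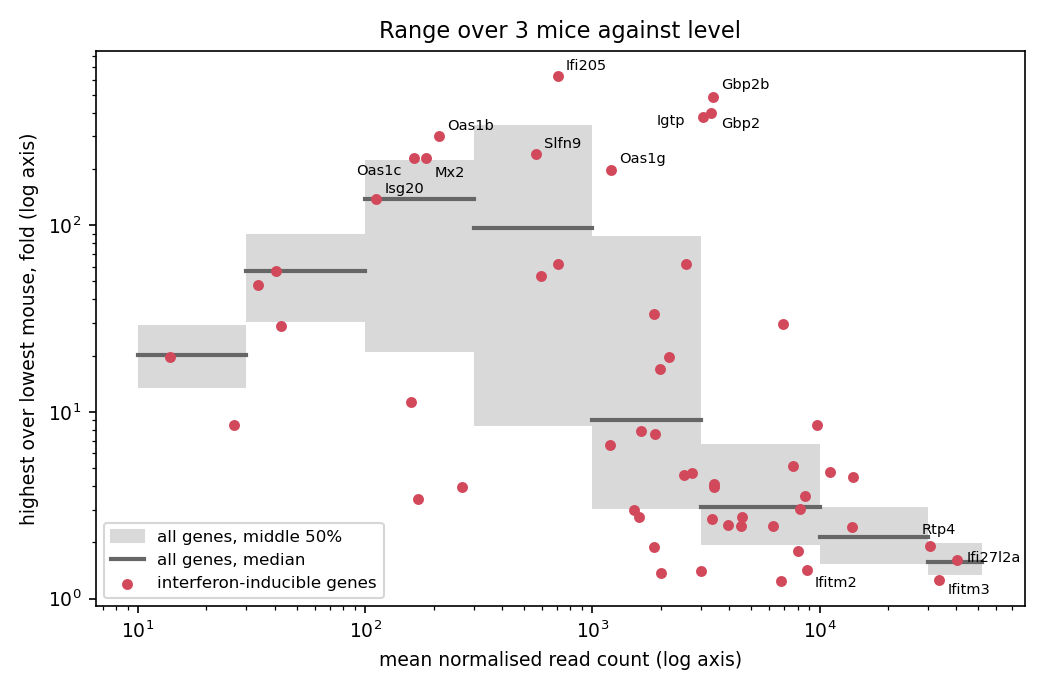
Ratio of the highest to the lowest mouse (log axis, values under 3 reads set to that floor) against mean normalised read count (log axis) for the 55 genes at a mean of 10 or more. Grey boxes and bars are the middle 50% and the median of all genes at each level, and 31 of the 55 points lie below the median. Points above their boxes include Ifi205, Gbp2b, Gbp2, Igtp, Oas1g, Iigp1 and Ifi203, among others.

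No mouse was the highest for most members. Mouse 1 was highest for 19 of the 55, mouse 2 for 15 and mouse 3 for 21 (34%, 34% and 32.1% of all genes at that level). Mouse 1 was the lowest for 22 (35.2% of genes), mouse 2 for 23 (29.9%) and mouse 3 for 10 (34.9%). Summed over a family, mouse 2 was lowest in 11 of 13 groups as scaled by the authors, the IRG sum being 39577.5, 19952 and 50871 and the Gbp sum 31048, 16471 and 45968. This depends on scaling, since as a share of all reads mouse 2 was lowest in 7 of 13. The 61 genes together took 0.759%, 0.656% and 0.913% of the reads of mice 1, 2 and 3. In the Schlafen, Ifit and Oas clusters each mouse was the highest for at least 1 gene.

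**Figure D4:**
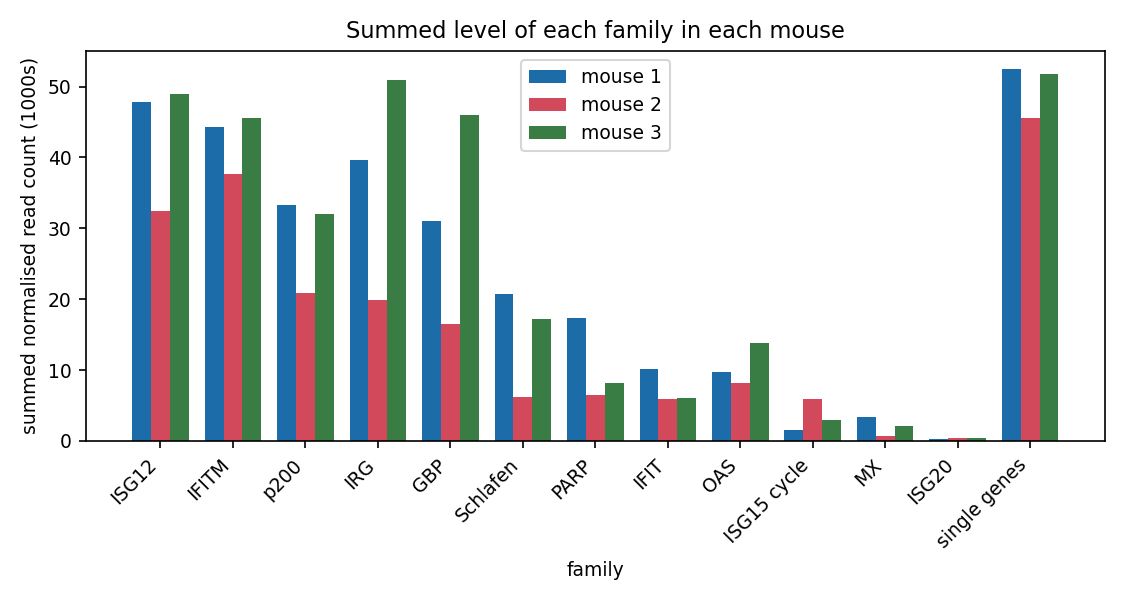
Summed normalised read count of each family (bars from 0, axis in units of 1000) in the 3 mice. Mouse 2 is lowest in 11 of 13 groups, and the Isg15 and Isg20 groups, where it is highest, are small.

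Mouse 2 was the only mouse with 10 or more for 7 members: Oas1b, Oas1c, Oasl1, Mx2, Isg15, Isg20 and Ifitm6. No member was at 10 or more in mouse 1 only or in mouse 3 only. Of all listed genes 11.6% had this pattern in mouse 2, a share near that of the members, against 4.63% for mouse 1 and 4.85% for mouse 3. Under 10 in a single mouse were Slfn9 in mouse 3 (7.99% of genes), Ifi205 and Tgtp1 in mouse 2 (2.69%) and Slfn5 in mouse 1 (7.17%). The same pattern was found outside the families in the gene of interferon beta, Ifnb1 (0.806, 156 and 0). It was also found in the nucleotide kinase Cmpk2 (5.65, 334 and 0.705) and the chemokine Cxcl11 (0, 273 and 0). Genes of other kinds had it too, such as the B cell marker Ebf1 (4.03, 337 and 0.705), Hspa1a (0, 74.9 and 0) and the endothelial marker Cdh5 (0, 25 and 0). All of these were picked out after their values were seen. Of the 8 tubule markers 7 were highest in mouse 2 too, though Kap had many reads in every mouse, and their part in the pattern was not tested.

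Genes upstream in the pathway were measured in the same cells. Of the 22 interferon gene symbols listed, 3 were in the table: Ifna2 and Ifna4 were at 0 in every mouse, and Ifnb1 had reads as just given. The rest, Ifng of interferon gamma among them, had no row and so no value here. All 5 receptor genes in the table exceeded 1000 in each library and were higher than the median gene (16.3% of all genes tested were), led by Ifngr1 of the interferon gamma receptor (25351, 20562 and 29863). Il10rb, shared by the interferon lambda and interleukin-10 receptors, was at 8391, 16050.1 and 15881. Ifnar2 was at 7011, 8791 and 11316 and Ifnar1 at 10820.4, 3013 and 2958. Receptor transcripts were thus present in every mouse, while those of the 3 interferon genes in the table were at or near 0 in mice 1 and 3. Among the signal transducers, the kinase gene Jak1 (3455, 3763 and 6677) was higher than the median gene. Stat2 was at 16.1, 3228 and 1713, and Irf9 at 5434, 1684 and 769, so Stat2 was lowest where Irf9 was highest.

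The regulatory genes were mixed. Against a share of 16.3% over all genes tested, 3 of 8 interferon regulatory factors were higher than the median gene, namely Irf1 (15142, 4897 and 2767), Irf2 (14445, 4771 and 9593) and Irf5 (5785, 2569 and 2131). Irf7, the factor that amplifies type I interferon, was at 73.4, 668 and 4053. Of 13 sensing genes with reads 4 were higher. The highest per kb were Tlr7, a receptor for single-stranded RNA (11925, 7110 and 10483), and Unc93b1, which carries such receptors to endosomes (4925, 4251 and 1899), both of them higher than the median gene. The kinase gene Tbk1 (6636, 593 and 5018) followed without passing the test, and Ikbke was at 0 in every mouse. Among the brakes, 4 of 8 were higher, with the phosphatase Ptpn6 (16521, 6881 and 11361) leading, then Pias1 (23841, 6937 and 4481) and Ptpn2 (3517, 3865 and 4987), whereas Socs1 had reads only in mouse 3 (0, 0 and 297). Of 27 further interferon-stimulated genes 12 were higher and 0 lower, led by Ly6e (85461, 63460.1 and 69512), Trim30a (37448, 19949 and 27959) and Ms4a4c (6274, 3135 and 5629). In this list 11 of 27 had a 10-fold range over mice (61.4% of all genes at a mean of 10 or more did).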

How the data were processed

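Macrophages of 3 mice were profiled from amplified cDNA (SMART-seq v4, 10 ng of cDNA, 8 PCR cycles, after digestion of the kidney for 30 min, per the labels' protocols). The deposited column holds normalised signal. The submitters' processing notes list HTSeq 0.5.4, DESeq 1.18.0 and build mm9, without their roles. No aligner, annotation or strand setting is stated (not given in the sources used here). Every deposited column has a minimum of exactly 1. After 1 was subtracted (a step chosen once the values were seen), 100% of the low values were whole multiples of 1 step per library (tolerance 0.05 of a step), which gave reads per gene. Reads carry no molecular identifiers, so floors cover counting error only.

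Exon lengths came from GENCODE M21 by gene identifier (61 of 61 members, 99.6% of genes). This annotation is of another build than the deposited values, so coordinates are given only for the RefSeq promoter stretches, on their own build. Windows of 50 bases of each member's longest M21 transcript were searched in transcripts of all other genes. Intercept-only limma 3.58.1 fits in R 4.3.3 used log2((value + 1)/kb) within each library, all genes with reads, 2-sided tests and Benjamini-Hochberg adjustment over all genes (threshold 0.05). The fits were tested on simulated data. Other steps used Python 3.11.15, pandas 2.3.3 and matplotlib 3.10.9.

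The members and lists were chosen with earlier results of these data known. Every member could be named. Per-mouse values were set by rule for the 3 highest per kb of a family, paired genes, single genes and the 10 widest ranges. Of pathway lists, the 3 highest per kb and genes at 0 were to be named, and others (such as Irf7, Stat2 and Socs1) were added after their values were seen. P-values and SEs come from limma, which draws each gene's variance over the 3 mice toward a value common to all genes. They therefore do not measure the spread of a gene's own 3 values alone. Against some references, such as Slfn2, Usp18 and Mx2, the common value replaced the gene's own. Pseudocounts, filters, length division, scaling and each mouse were varied. A result withheld for evaluation is not reported here.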

Additional observations from a re-analysis of the deposited data

How the results depend on the processing

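The count of members higher than the median gene ranged from 18 to 30 over pseudocounts of 0.1 and 10, no length division and leaving out each mouse. Under these settings 9.43% to 20.38% of all genes tested were higher. The count was 32 with a variance trend (an alternative chosen after seeing the data, 23.46% of genes) and 31 with all genes listed (20.74%). Without 1 mouse it was 18 to 21 (9.43% to 10.96% of genes). It was 14 of 44 when only genes at 10 or more in every library were fitted (15.3% of such genes). Members lower than the median gene numbered 2 (2102 of 13792 genes), and 1 with that filter (500 of 6560 genes). They numbered 7 with all genes listed, which adds the 5 at 0 (3059 of 14759 genes). Without length division there were 4 (2951 of 13835 genes), and without 1 mouse from 1 to 2 (1704 to 2014 of 13792 genes). Pairs past the threshold numbered 8, 5 of 13 with that filter, and from 4 to 9 without 1 mouse. Of 29 called members 15 kept their call in every alternative that could be fitted, as did 4 of 8 called pairs. Sizes that involve a gene at or near 0 reads depended on the pseudocount. With 0.1 and 10, Isg15 against Usp18 was -8.64 and -5.14 log2 units, and Ifitm6 against Ifitm3 was -14.30 and -10.86. Oasl1 against Oasl2 was -10.73 and -6.20, and Mx1 against Mx2 was 7.30 and 4.41. No called member or called pair changed direction. Uncalled pairs did so for Oas1a/Oas2 (-1.21 without length division, and from -1.10 to 1.88 without 1 mouse, -0.69 being the value without mouse 2), Gbp2/Gbp7 (-3.86 to 0.71 without 1 mouse) and Igtp/Irgm1 (-3.88 to 0.82 without 1 mouse), and the cause was not tested. The count of members with a 10-fold range was 22 (61.4% of all genes at a mean of 10 or more). Without 1 mouse it was from 12 to 17 (chosen after seeing the data, 41.3% to 43.9% of genes). It was 22 with scaling to the library total (61.2%), 18 at a mean of 100 or more (54.9%) and 19 with a pseudocount of 10 (50.55%). The planned count model and its scaling factors were not run, although reads per gene could be recovered from the deposited signal. No paired analysis was possible because there is 1 group. With 3 libraries, differences under several-fold are mostly beyond detection.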
